A study of Mus musculus with 12 samples.

Results

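Interferon-induced genes were followed across the female and male reproductive tracts of wild-type and Hox mutant mice. They were taken from a fixed list of 46 gene symbols and found by symbol in every library. The rule for the list uses no measured value, but the genes were chosen with earlier results of these data known. The list held 24 classical type I interferon targets, 5 transcription factors of the interferon response, 9 guanylate-binding proteins and immunity-related GTPases, 5 genes of the major histocompatibility complex class I antigen pathway and 3 Schlafen genes. Of the 46, 45 had a row among the 31618 genes of the female libraries and among the 31669 genes of the male libraries. Irgm2 had no row under its symbol, and Iigp1 had the same value in every library. The other 44 were measured in both sexes, with a highest library of at least 20 normalised reads or a level too high to read, against 16737 measured genes in the female set and 16826 in the male set. This minimum removed no listed gene that varied at all, and the 7 measured GTPases stand for the 9 listed.

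RNA sequencing was done on 12 libraries, 6 from females and 6 from males, each made from RNA pooled from 3 animals, so that each group had 1 library. All animals were on a mixed CD1/129 background and were between 3 and 7 months old, and the females were collected in diestrus. Uterus and vas deferens were each taken from 5 genotypes, and the wild type also gave an oviduct and a caudal epididymis library. The genotypes were WT, Hoxa9,10,11-/- (called Hoxa-null here), Hoxd9,10,11-/- (Hoxd-null), Hoxa9,10,11-/-d9,10,11+/- (compound Hoxa-null, which also carries 1 mutant Hoxd copy) and Hoxa9,10,11+/-d9,10,11-/- (compound Hoxd-null, which also carries 1 mutant Hoxa copy). Hoxa-null with compound Hoxa-null is called the Hoxa-deficient pair, and Hoxd-null with compound Hoxd-null the Hoxd-deficient pair. Because each group was a single pool, no difference below has a replicate check, no p-value is given, and a difference was called when it reached 2-fold, that is 1 on the log2 scale.

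Interferons are secreted proteins that warn cells of infection. Type I interferons act through the IFNAR receptor, the kinases JAK1 and TYK2 and a transcription factor complex containing STAT2 and IRF9 that binds the interferon-stimulated response element, while interferon gamma acts mainly through a different element, the gamma-activated site. Many targets, among them the guanylate-binding proteins and the class I genes, answer to both. In the female tract, epithelial interferon epsilon and the uterine natural killer cells are known sources of interferon activity in the absence of infection.

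The promoters show how the listed genes share these elements, and 8 stretches are printed as examples. RefSeq promoter windows of build GRCm38.p6, from 250 bases before to 50 bases after a transcription start, were found for 34 of the 46 genes. They were searched on both strands for the core of the interferon-stimulated response element, written here as GAAA, any 2 bases, GAAA (TTTC, any 2 bases, TTTC on the other strand), and for the gamma-activated site, TTC, any 3 bases, GAA. Both motifs can overlap. Capitals mark the matches, and each stretch runs 5′ to 3′ on the strand of its gene, all upstream of the start.
Isg15, chr4:156200850-156200921, minus strand: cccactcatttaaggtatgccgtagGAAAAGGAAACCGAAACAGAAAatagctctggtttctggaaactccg
Ifit1, chr19:34640760-34640838, plus strand: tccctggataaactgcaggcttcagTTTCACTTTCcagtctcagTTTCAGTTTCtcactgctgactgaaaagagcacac
Oas3, chr5:120777700-120777759, minus strand: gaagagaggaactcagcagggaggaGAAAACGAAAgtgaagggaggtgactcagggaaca
Gbp2, chr3:142620579-142620638, plus strand: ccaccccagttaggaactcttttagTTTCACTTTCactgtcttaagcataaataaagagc
Igtp, chr11:58199486-58199555, plus strand: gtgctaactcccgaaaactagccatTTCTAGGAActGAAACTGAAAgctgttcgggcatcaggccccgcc
Irf1, chr11:53769899-53769957, plus strand: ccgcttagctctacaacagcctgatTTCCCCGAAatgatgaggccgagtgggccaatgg
Psmb8, chr17:34198073-34198131, plus strand: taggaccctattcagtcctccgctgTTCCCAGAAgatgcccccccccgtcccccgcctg
Isg20, chr7:78913326-78913384, plus strand: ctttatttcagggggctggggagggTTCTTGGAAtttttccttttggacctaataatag

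The response element core was present in 17 of the 34 genes (50%), against 1079 of 27025 genes with a window (3.99%). It lay in 9 of 16 type I targets, in all 7 GTPases that had a window, in 1 of 5 transcription factors (Stat2), and in none of 3 class I genes or 3 Schlafen genes. The gamma-activated site was present in 12 of the 34 genes (35.3%), against 9.55% of all genes. It was found without the response element core in Irf1, Irf8, Psmb8 and the type I targets Isg20, Ifit2 and Ifi35. Igtp, Irgm2 and Tgtp1 carried both motifs side by side, and the 3 Schlafen genes carried neither. A match describes the letters of these windows and does not show a bound site.

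In the deposited tables each gene's values have a median of 0 over the 6 libraries of a sex, so values were compared within a sex only. A level in normalised reads could be recovered for 17 of the 44 genes in females and 27 in males, and for the others only the centred log2 value is given. The relative depth of the libraries spanned 1.34-fold in females and 1.92-fold in males, and the median difference from WT over all measured genes was at most 0.02 on the log2 scale. Hoxa11 differed from WT by between -3.20 and -2.29 in the 4 libraries homozygous for the Hoxa mutation, and Hoxd11 by between -2.47 and -0.59 in the 4 homozygous for the Hoxd mutation, although Hoxd11 was also below WT in the 4 others (-1.45 to -0.73). In the uteri Hoxd11 was at -0.59 from WT in Hoxd-null, against -0.73 in Hoxa-null and -1.35 in compound Hoxa-null. Hoxd10 was above WT in Hoxd-null and compound Hoxd-null uterus (0.57 and 0.26), so neither gene singles out the Hoxd-null uterus. Hoxa9 was not lower in all 4 libraries homozygous for the Hoxa mutation (-0.34 to 0.62). How the alleles alter the transcripts is not given in the sources used here. The oviduct library carried the ciliated-cell marker Foxj1 at 3541 normalised reads against 119 in WT uterus. The uterine gland proteases Prss28 and Prss29, 7279.9 and 9189 normalised reads in WT uterus, were at most 62.7 in the mutant uteri. In males they were at 30.4 and 120.4 normalised reads in WT vas deferens, which was run in the same lane as WT uterus, and at no more than 2.76 in the 5 other libraries. WT uterus, Hoxa-null uterus and WT vas deferens were sequenced in lane 1 of run 134. Lane 2 of that run held the 3 remaining uteri and every mutant vas except the compound Hoxd-null one, and the oviduct, the epididymis and that last vas library were in run 136.

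In the uterus, interferon-induced genes were highest in the compound Hoxd-null library and lowest in the Hoxa-null library. Among the 5 uterine libraries, 38 of 44 genes had their highest value in the compound Hoxd-null uterus (86.4%, against 19.5% of all measured genes) and none had its lowest there. The Hoxa-null uterus held the lowest value of 30 genes (68.2%, against 17.5% of all), and the compound Hoxa-null uterus that of 9 more (20.5%, against 23.9%). The WT uterus held the highest value of none and the lowest of 3. The spread between the highest and the lowest uterus was 2.86-fold for the median gene, with a range from 1.30-fold to 27.3-fold, and it reached 2-fold for 35 of 44. In bulk tissue, fewer cells of a type that carries a transcript and less transcript per cell cannot be told apart, and this holds for all results below.

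**Figure D1:**
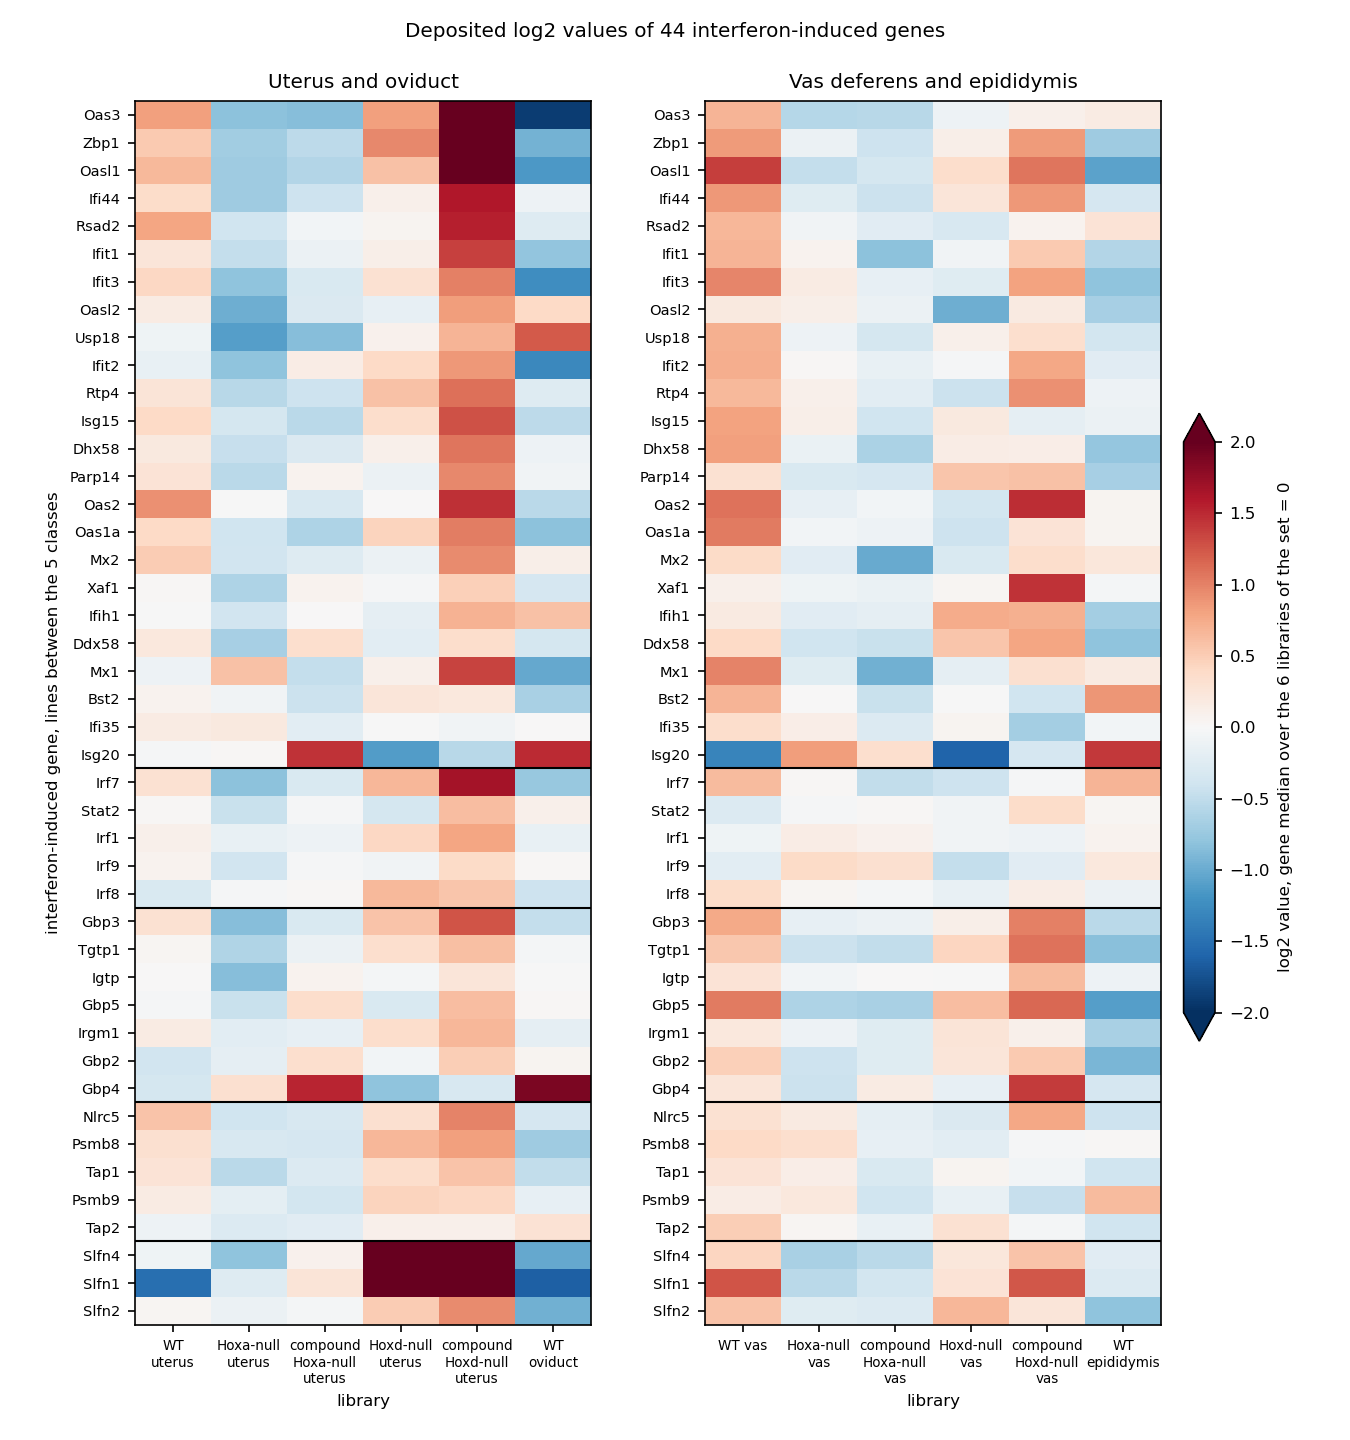
Deposited log2 values of the 44 measured interferon-induced genes (rows, grouped by class) in the 6 female libraries (left) and 6 male libraries (right); colour gives the value relative to the gene's median over its 6 libraries. The compound Hoxd-null uterus is the highest of the 5 uteri for 38 genes, and the Hoxa-null uterus the lowest for 30.

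Set against the WT uterus, which all of the following comparisons share, 10 of 44 genes were at least 2-fold higher in the compound Hoxd-null uterus and none was lower (7.96% and 6.36% of all measured genes). The median difference was 0.67 and 42 genes lay above 0. In the Hoxa-null uterus 10 genes were at least 2-fold lower and 1 was higher (7.32% and 5.96% of all), with a median of -0.69 and 37 genes below 0. In the compound Hoxa-null uterus 5 were lower and 3 higher (6.85% and 8.6% of all), with a median of -0.37 and 32 below 0. The Hoxd-null uterus was spread evenly about WT, with 22 genes above and 22 below 0, a median of -0.02, and 2 genes higher and 1 lower (6.2% and 5.84% of all). The counts in this library and in the compound Hoxa-null uterus rested on 5 or fewer genes in each direction. Run 134 was split between lanes, so only some comparisons fall within a lane. Within lane 1, the Hoxa-null uterus differed from WT as above. Within lane 2, the compound Hoxd-null uterus exceeded the Hoxd-null uterus at a median of 0.58, with 40 genes above 0, 11 at least 2-fold higher and none lower (5.4% and 4.36% of all genes). Also within lane 2, it exceeded the compound Hoxa-null uterus at a median of 1.06, with 42 genes above 0, 22 at least 2-fold higher and 2 lower (7.83% and 8.2% of all genes).

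The ubiquitin-like modifier Isg15 had 228 normalised reads in WT uterus, 135 in Hoxa-null, 119 in compound Hoxa-null, 221 in Hoxd-null and 419.5 in compound Hoxd-null. The Hoxa-deficient pair was therefore low and the compound Hoxd-null library stood above all others. The difference from WT was -0.76 in the Hoxa-null uterus (95% exact binomial interval of the 2 read counts -1.07 to -0.44) and 0.88 in the compound Hoxd-null uterus (0.64 to 1.12). These intervals cover counting error only and treat reads as independent molecules, and they hold no variation between animals.

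The 2′-5′ oligoadenylate synthetases make a messenger that activates the RNA-cleaving enzyme RNase L, and their genes differed in the size and order of their values. Oas3 had deposited values of 0.82 in WT, -0.82 in Hoxa-null, -0.86 in compound Hoxa-null, 0.82 in Hoxd-null and 2.47 in compound Hoxd-null uterus. The Hoxa-deficient pair lay 1.63 below the lowest of the 3 other uteri, the largest such gap among the 44 genes. Oas2 had 467 normalised reads in WT, 246 in Hoxa-null, 249 in Hoxd-null, 197 in compound Hoxa-null and 682 in compound Hoxd-null uterus, so it was low in 3 mutants, the Hoxd-null uterus included. Oasl1, a related protein that lacks synthetase activity, had 74.8 normalised reads in WT, 29.1 in Hoxa-null, 31.7 in compound Hoxa-null, 71.3 in Hoxd-null and 211 in compound Hoxd-null uterus. Its difference from WT was -1.36 in Hoxa-null (interval -2.01 to -0.71) and 1.496 in compound Hoxd-null uterus (1.11 to 1.91). Oas1a, which has near-identical neighbours, was at -0.78, -1.002, 0.06 and 0.63 from WT in the Hoxa-null, compound Hoxa-null, Hoxd-null and compound Hoxd-null uteri. Oasl2 was at -1.13, -0.45, -0.33 and 0.67 in that order of libraries.

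Zbp1, a sensor of left-handed nucleic acid that can trigger necroptosis, had 152 normalised reads in WT uterus, 66.0 in Hoxa-null, 74.0 in compound Hoxa-null, 207 in Hoxd-null and 545 in compound Hoxd-null uterus. The differences from WT were -1.21 (interval -1.64 to -0.78) in Hoxa-null and 1.84 (1.57 to 2.12) in compound Hoxd-null, the latter the largest difference among type I targets in that library. Rsad2, the antiviral enzyme viperin, had 188 normalised reads in WT, 82.7 in Hoxa-null, 105 in compound Hoxa-null, 113 in Hoxd-null and 322 in compound Hoxd-null uterus. All of its mutant libraries except the compound Hoxd-null one were below WT. Usp18, the protease that removes Isg15 from proteins and restrains the receptor, had 215, 106, 126, 241 and 363 normalised reads in WT, Hoxa-null, compound Hoxa-null, Hoxd-null and compound Hoxd-null uterus.

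The Ifit genes, which encode proteins that bind foreign RNA, differed in size of effect. Ifit1 was at -0.73, -0.37, -0.12 and 1.12 from WT in the Hoxa-null, compound Hoxa-null, Hoxd-null and compound Hoxd-null uteri. Ifit3, which has a close copy, was at -1.22, -0.73, -0.11 and 0.58. Ifit2 had 226 normalised reads in WT, 144 in Hoxa-null, 279.9 in compound Hoxa-null, 332 in Hoxd-null and 459.6 in compound Hoxd-null uterus, so only its Hoxa-null library was below WT. Ifi44 was at -1.08, -0.77, -0.26 and 1.25 in the same order.

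The remaining type I targets included exceptions to this order. The antiviral GTPase Mx1 had 48.5 normalised reads in WT, 78.9 in Hoxa-null, 37.8 in compound Hoxa-null, 56.5 in Hoxd-null and 133 in compound Hoxd-null uterus, so it was higher rather than lower in the Hoxa-null library (0.70, interval 0.16 to 1.26). Its neighbour Mx2 had 91.2, 49.3, 53.8, 59.0 and 124 normalised reads in that order. The exonuclease Isg20 went the other way from its class. Its deposited values were -0.03 in WT, 0.03 in Hoxa-null, 1.44 in compound Hoxa-null, -1.12 in Hoxd-null and -0.56 in compound Hoxd-null uterus. No other listed gene was called lower in Hoxd-null uterus (-1.09 for Isg20). Ifi35 and the virion tether Bst2 stayed within 0.51 of WT in all 4 mutant uteri. The RNA helicase sensors differed among themselves: Dhx58 had 215 normalised reads in WT and 135 in Hoxa-null uterus, Ifih1 had 242 and 187, and Ddx58 was at -0.88 in that library. In the compound Hoxd-null uterus Dhx58 had 392 and Ifih1 394 normalised reads, and Ddx58 was at 0.15 from WT.

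**Figure D2:**
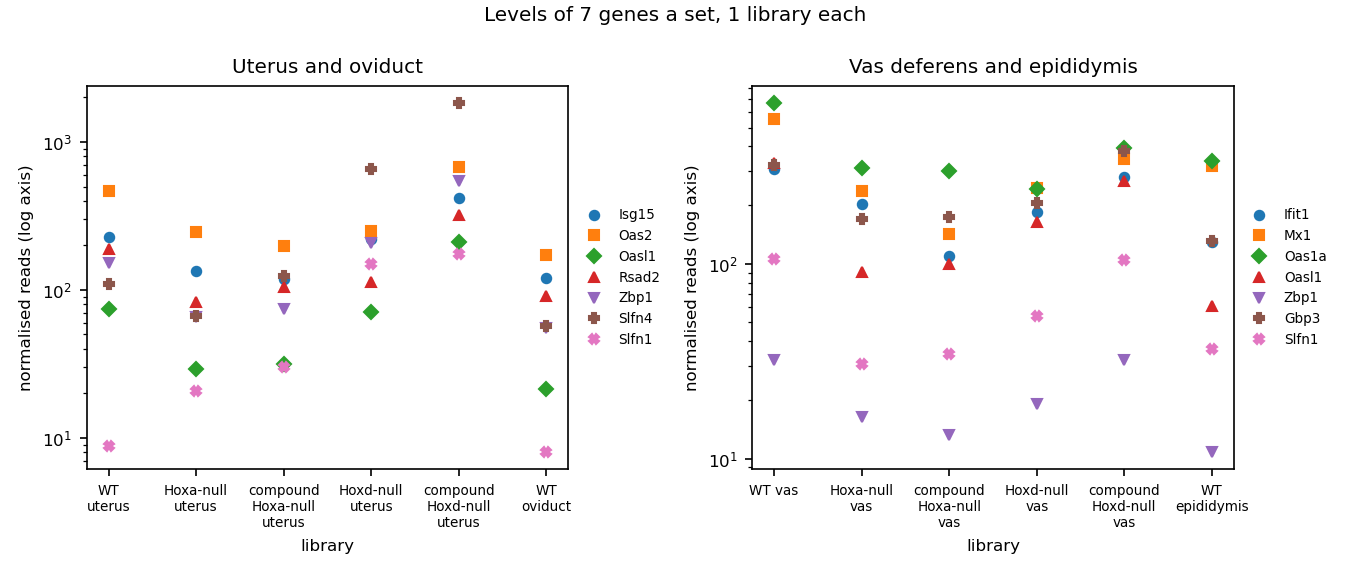
Normalised reads on a log axis for 7 genes in the 6 female libraries (left) and 7 genes in the 6 male libraries (right), 1 point per library with no error bar because each group has 1 library. In the uterus the type I targets Isg15, Oas2, Oasl1, Rsad2 and Zbp1 are lower in the Hoxa-deficient pair than in WT and highest in compound Hoxd-null, while Slfn1 and Slfn4 are high in the Hoxd-deficient pair.

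Of the transcription factors, Irf7, the amplifier of type I interferon production, followed the type I targets. Its deposited values were 0.31 in WT, -0.83 in Hoxa-null, -0.31 in compound Hoxa-null, 0.67 in Hoxd-null and 1.66 in compound Hoxd-null uterus. It was the only factor called, at -1.14 in Hoxa-null and 1.34 in compound Hoxd-null. Irf8, a factor of myeloid cells, had 233 normalised reads in WT, 283 in Hoxa-null, 293 in compound Hoxa-null, 452 in Hoxd-null and 423 in compound Hoxd-null uterus, so that WT was its lowest library and the Hoxd-null uterus its highest. Irf9 and Stat2, members of the type I complex, stayed between -0.46 and 0.60 of WT. Irf1 was at -0.25, -0.22, 0.31 and 0.68 in the Hoxa-null, compound Hoxa-null, Hoxd-null and compound Hoxd-null uteri.

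The medians of the GTPases and the class I genes were nearer to WT than that of the type I targets in 3 mutant uteri and farther from it in the Hoxd-null uterus. In the compound Hoxd-null uterus the median difference from WT was 0.73 for the type I targets (7 of 24 at least 2-fold higher), 0.56 for the GTPases (0 of 7) and 0.31 for the class I genes (0 of 5). Of all measured genes 7.96% were at least 2-fold higher there, so 0 of 7 or 0 of 5 does not set a class apart. All 12 GTPases and class I genes were above 0 there. In the Hoxa-null uterus the medians were -0.81 for the type I targets (8 of 24 at least 2-fold lower), -0.41 for the GTPases (1 of 7) and -0.63 for the class I genes (0 of 5), against 7.32% of all genes lower. In the compound Hoxa-null uterus they were -0.59, 0.07 and -0.53. In the Hoxd-null uterus they were -0.10, 0.19 and 0.20, so the type I targets were below WT at the median and the other classes above it. The type I median minus the median of the 12 GTPases and class I genes was -0.28, -0.35, -0.30 and 0.26 in the Hoxa-null, compound Hoxa-null, Hoxd-null and compound Hoxd-null uteri. Within lane 2 it was 0.64 for compound Hoxd-null against Hoxd-null and 0.67 against compound Hoxa-null. These differences between classes were not tested.

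Single GTPases spanned from 1.84-fold (Irgm1) to 5.06-fold (Gbp4) between the lowest and the highest uterus. Gbp4 and Gbp3 (4.30-fold) were the widest, and Tgtp1 came next at 2.29-fold. Gbp3, a guanylate-binding protein, had deposited values of 0.30 in WT, -0.85 in Hoxa-null, -0.30 in compound Hoxa-null, 0.57 in Hoxd-null and 1.26 in compound Hoxd-null uterus, the same order as Irf7. Gbp4, on another chromosome (5, against 3 for Gbp2, Gbp3 and Gbp5), had -0.34, 0.32, 1.53, -0.81 and -0.32 in the same libraries. It was thus higher than WT in the Hoxa-deficient pair, by 0.67 and 1.87, as Isg20 was by 0.06 and 1.47. For no other listed gene did this pair lie above all 3 remaining uteri. Igtp, an immunity-related GTPase of the vacuole response, stayed within 0.24 of WT except in the Hoxa-null uterus, where it was at -0.86. Reads of guanylate-binding proteins and of Tgtp1 can be shared with close copies, and how the counting treated them is not given in the sources used here.

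The class I genes spanned from 1.30-fold (Tap2) to 2.62-fold (Nlrc5) between the lowest and the highest uterus. Psmb9, an immunoproteasome subunit, had 255 normalised reads in WT, 198 in Hoxa-null, 177 in compound Hoxa-null, 309 in Hoxd-null and 303 in compound Hoxd-null uterus. Psmb8, its partner subunit, was at -0.63, -0.65, 0.34 and 0.51 from WT in the Hoxa-null, compound Hoxa-null, Hoxd-null and compound Hoxd-null uteri. The peptide transporter genes Tap1 and Tap2 were at -0.81 and -0.17 in the Hoxa-null uterus. Nlrc5, the transactivator of class I genes, had 32.1 normalised reads in WT, 16.4 in Hoxa-null, 17.4 in compound Hoxa-null, 26.9 in Hoxd-null and 43.0 in compound Hoxd-null uterus. All 5 class I genes were below WT in the Hoxa-deficient pair. None passed 2-fold from WT in any mutant uterus, where 5.84% to 8.6% of all genes did in a given direction. Of 13 further class I pathway genes outside the list, 12 were above WT in the Hoxd-null uterus (median 0.31) and 11 in the compound Hoxd-null uterus (median 0.39). In each of these libraries 0 were called, against 6.2% and 7.96% of all genes called higher.

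**Figure D3:**
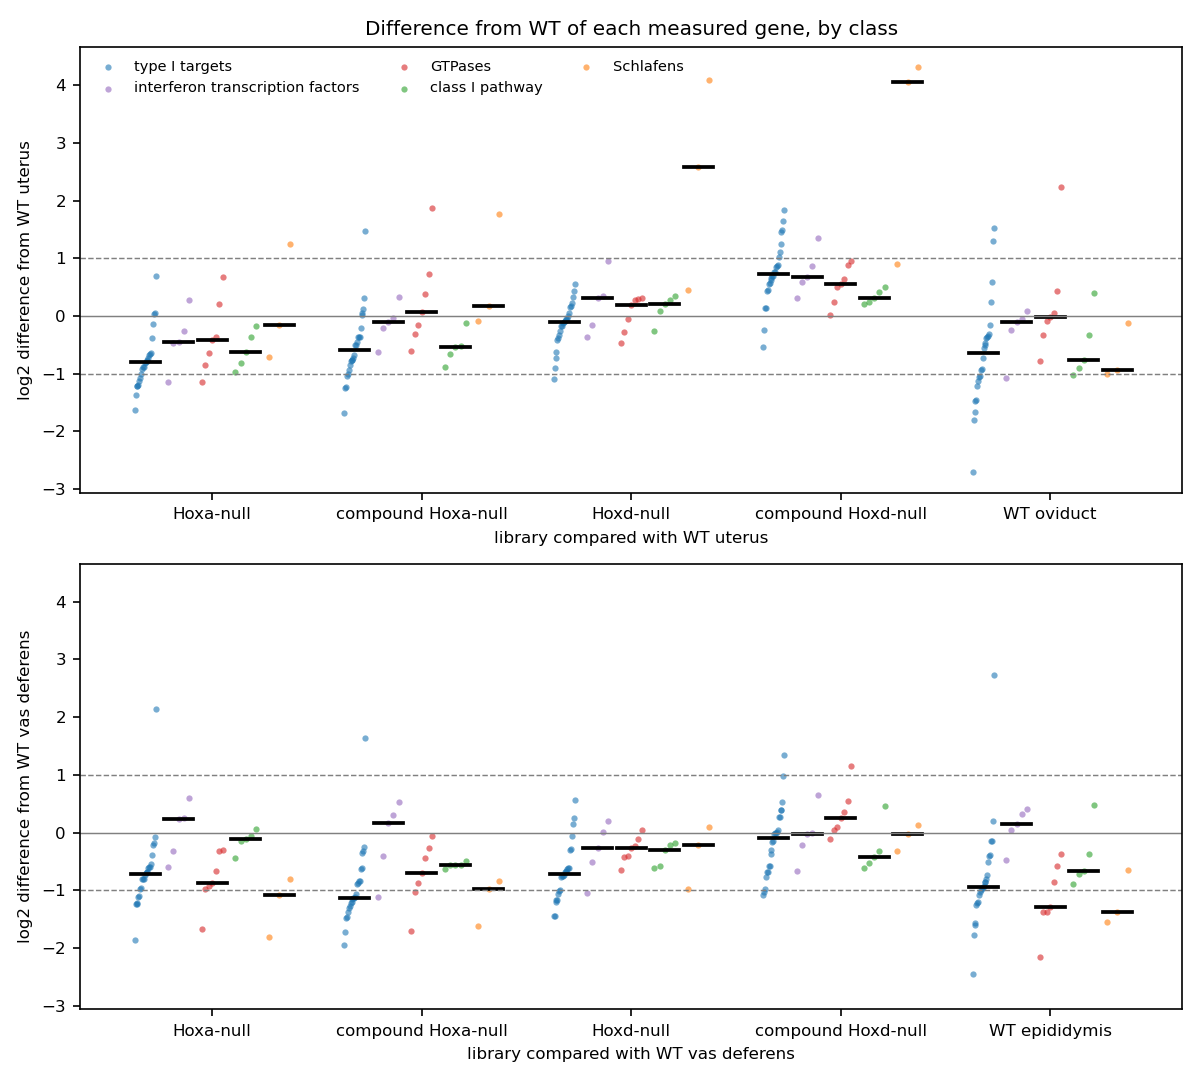
Difference from WT on the log2 scale for each of the 44 genes (points), by class, in the 4 mutant libraries and the upper-tract tissue of each sex; bars are class medians and dashed lines mark 2-fold. In the compound Hoxd-null uterus the type I median is 0.73 and the class I median 0.31, and in the compound Hoxa-null vas deferens they are -1.13 and -0.56.

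The Schlafen genes, regulators of immune cell growth that lie together on chromosome 11, included the largest differences in the uterus, those of Slfn1 and Slfn4, which were high in the Hoxd-deficient pair. Slfn4, a gene of monocytes, macrophages and neutrophils, had 109 normalised reads in WT, 66.7 in Hoxa-null, 123 in compound Hoxa-null, 654 in Hoxd-null and 1823 in compound Hoxd-null uterus. Slfn1 had 8.77 normalised reads in WT, 20.8 in Hoxa-null, 30.04 in compound Hoxa-null, 149 in Hoxd-null and 174 in compound Hoxd-null uterus. For both genes the Hoxd-deficient pair lay above all 3 other uteri, by 2.41 for Slfn4 and 2.31 for Slfn1. No other listed gene set this pair 2-fold above the rest (0.884% of all genes did), and none set it 2-fold below (0.353% of all). The differences from WT were 2.58 (interval 2.27 to 2.90) and 4.06 (3.76 to 4.36) for Slfn4, and 4.09 (3.06 to 5.32) and 4.31 (3.31 to 5.55) for Slfn1. Slfn2, a gene of quiescent lymphocytes and monocytes, was at 0.46 and 0.90 in those libraries and at -0.16 and -0.09 in the Hoxa-deficient pair. Counts of genes that separate a pair depend on single libraries: without the WT library 5 genes separated the Hoxd mutants upwards by 2-fold, and without the Hoxd-null library 8. Leaving out a library can only keep or raise such a count, for any genes. The shares of all genes given here and below are for the full set of libraries.

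The Hoxa-deficient pair lay below all 3 other uteri, without overlap, for 27 of 44 genes (13.1% of all genes) and above them for 2, Isg20 and Gbp4 (14.8% of all). The gap reached 2-fold for 3 genes, Oas3, Oasl1 and Zbp1 (1.09% of all genes), and in the upward direction for none (0.992% of all). Downwards it reached 2-fold for 4 without the Hoxa-null library, 5 without the WT library and 7 without the compound Hoxa-null library. The share of 1.09% does not apply to these counts. The Hoxd-deficient pair lay above all others for 20 genes (14.4% of all) and below them for 1, Isg20 (13.8% of all). These 20 included 4 of 5 class I genes, Psmb8, Psmb9, Tap1 and Tap2, and all 3 Schlafen genes. Between the compound mutants, 16 of 24 type I targets were at least 2-fold higher in compound Hoxd-null than in compound Hoxa-null uterus (7.83% of all genes), led by Oas3 at 3.33, Zbp1 at 2.88 and Oasl1 at 2.73. Adding the mutant Hoxd copy to the Hoxa-null state went with a median difference of 0.29, with 3 genes at least 2-fold higher and 1 lower (6.72% and 4.99% of all genes), and this comparison crosses lanes.

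**Figure D4:**
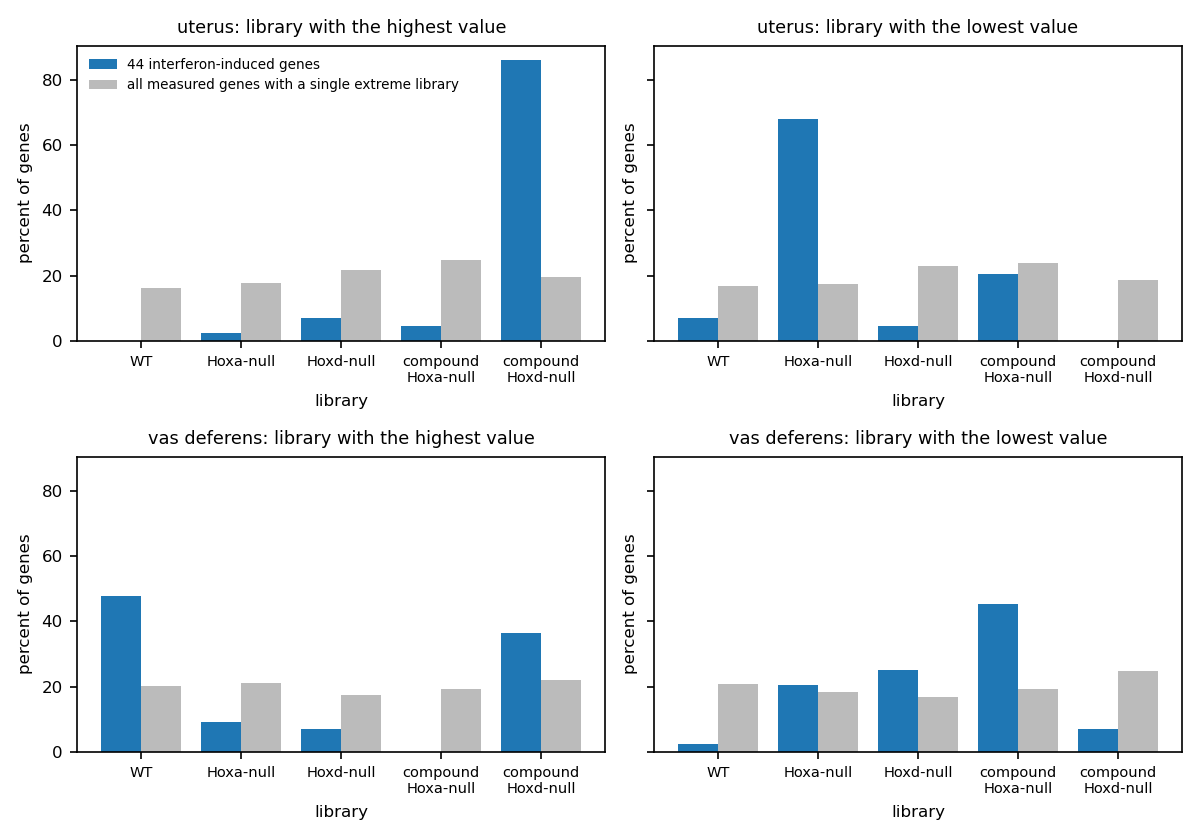
Percent of the 44 interferon-induced genes, and of all measured genes, that have their highest or lowest value in each of the 5 libraries of a tissue. The compound Hoxd-null uterus holds the highest value of 86.4% of the listed genes against 19.5% of all genes, and in the vas deferens the WT library holds 47.7% of the highest values.

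Other genes of the pathway were also compared between these libraries, and their part in the interferon-induced differences was not tested. The type I interferons Ifna1, Ifna2, Ifna4, Ifna5, Ifna6, Ifna7, Ifna9, Ifna11, Ifna12, Ifna14 and Ifnab and the lambda interferons Il28a and Il28b did not vary in any of the 12 libraries, and Ifnb1 was within 1 read of the floor of the scale in every female library and did not vary in the males. Ifne, the epithelial type I interferon, had 36.3 normalised reads in WT, 63.9 in Hoxa-null, 37.2 in compound Hoxa-null, 15.6 in Hoxd-null and 61.0 in compound Hoxd-null uterus, so it was lowest in the Hoxd-null and not in the Hoxa-null library. Ifnz, another type I interferon, whose level could not be read, was at 0.34, 1.096, 1.83 and 1.45 from WT in the Hoxa-null, compound Hoxa-null, Hoxd-null and compound Hoxd-null uteri and at 1.75 in the oviduct. In the vasa it was at -1.51, -3.73, -0.30 and -0.57 in the same order of genotypes. Ifng reached 8.38 normalised reads at most, in the Hoxd-null uterus, and was below the minimum. Of 17 measured genes of interferon receptors and JAK-STAT signalling, feedback inhibitors included, the Hoxa-null uterus had 2 called higher and 1 lower (5.96% and 7.32% of all genes), and the compound Hoxd-null uterus 1 called higher (7.96% of all). Socs1, a feedback inhibitor of the kinases, had 70.6 normalised reads in WT and 178 in Hoxa-null uterus. Socs3, another such inhibitor, was at 1.096 in Hoxa-null and 1.33 in compound Hoxd-null uterus, and Il28ra, the lambda receptor chain, at -1.04 in Hoxa-null.

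Among 17 nucleic acid sensors and adaptors, 5 were called higher in the compound Hoxd-null uterus (7.96% of all genes), 4 in the Hoxd-null (6.2% of all) and 4 in the compound Hoxa-null uterus (8.6% of all), with none lower in these 3. In the Hoxa-null uterus 1 was called higher and 1 lower (5.96% and 7.32% of all genes). The endosomal receptors Tlr7, Tlr8 and Tlr9 were at 1.97, 2.51 and 2.13 in compound Hoxd-null, at 1.61, 1.95 and 1.18 in Hoxd-null and at 1.24, 1.34 and 0.90 in compound Hoxa-null uterus. Of 37 other interferon-induced genes fixed as a list, 32 were below WT in the Hoxa-null uterus (median -0.30, 1 called higher and 3 lower, against 5.96% and 7.32% of all genes) and 31 were above it in the compound Hoxd-null uterus (median 0.47, 5 called higher and 1 lower, against 7.96% and 6.36% of all). The medians of that list in the compound Hoxa-null and Hoxd-null uteri were -0.08 and -0.01. The medians of this wider list thus had the same order of libraries as those of the 44, with few genes past 2-fold.

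Markers of immune cells also differed between the uteri, and the order of the libraries varied with the list. In the Hoxd-deficient pair all 9 macrophage markers were called higher than in WT (median 1.16 in Hoxd-null, 1.502 in compound Hoxd-null), as were 6 of 7 neutrophil markers (medians 2.92 and 2.66). The macrophage medians in the Hoxa-deficient pair were 0.33 and 0.12. The 3 macrophage markers with a readable level, Cd68, Emr1 and Mrc1, summed to 548 normalised reads in WT, 1081 in Hoxa-null, 1578 in Hoxd-null, 1257 in compound Hoxa-null and 1960.4 in compound Hoxd-null uterus. The 6 readable neutrophil markers summed to 24.02, 47.6, 899, 172 and 597 normalised reads in that order. The dendritic cell markers were by summed level lowest in Hoxa-null and highest in compound Hoxd-null: the 7 of 8 with a readable level summed to 589 normalised reads in WT, 489.6 in Hoxa-null, 739 in Hoxd-null, 615 in compound Hoxa-null and 829 in compound Hoxd-null uterus. The medians of the dendritic list from WT were 0.07 in Hoxa-null, 0.09 in compound Hoxa-null, 0.54 in Hoxd-null and 0.99 in compound Hoxd-null. By median no mutant was thus below WT, unlike the interferon-induced genes in the Hoxa-deficient pair (-0.69 and -0.37). The plasmacytoid dendritic cell markers, of a cell known for making type I interferon, had medians of 2.71, 1.74, 1.28 and 1.51 in those libraries. The 4 of 6 measured ones with a readable level summed to 23.4 normalised reads in WT, 427 in Hoxa-null, 147 in compound Hoxa-null, 56.5 in Hoxd-null and 95.9 in compound Hoxd-null uterus, and Ly6d, which other cells express too, made up 416 of those in Hoxa-null.

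Natural killer markers were low in the Hoxa-deficient pair: 7 of 8 were called lower in Hoxa-null (median -1.81) and 8 of 8 in compound Hoxa-null uterus (median -1.78), against medians of 0.55 in Hoxd-null and 0.20 in compound Hoxd-null uterus. The 3 with a readable level, Ncr1, Klre1 and Klrd1, summed to 102 normalised reads in WT, 25.9 in Hoxa-null, 26.0 in compound Hoxa-null, 124 in Hoxd-null and 101 in compound Hoxd-null uterus. T cell markers had medians of 0.07, 0.62, 1.35 and 0.80 in the Hoxa-null, compound Hoxa-null, Hoxd-null and compound Hoxd-null uteri, and B and plasma cell markers 0.59, 1.65, 1.81 and 1.64. General leukocyte markers had medians of 0.07, 0.34, 1.28 and 1.26 in that order. No list had all of its defining markers at 0 in any uterus. The part of these cells in the interferon-induced differences was not tested.

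**Figure D5:**
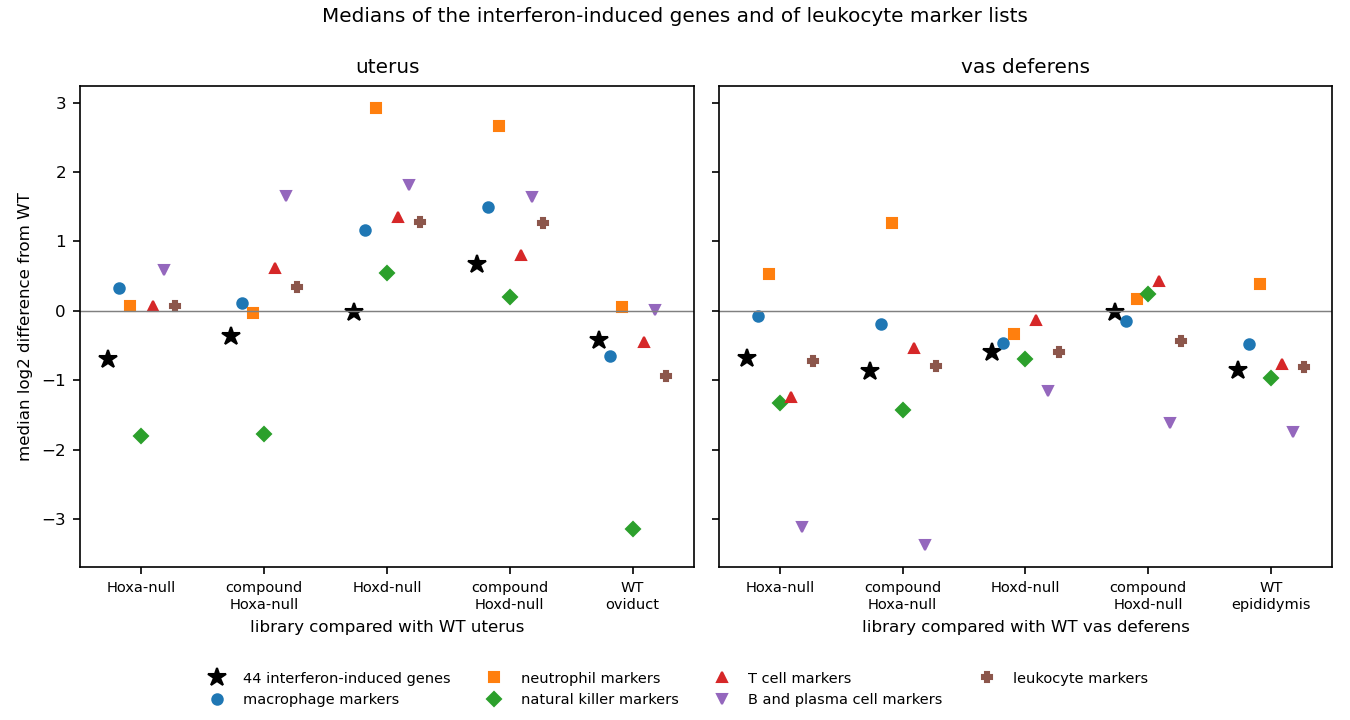
Median difference from WT on the log2 scale for the 44 interferon-induced genes and for lists of cell type markers in each library, females left and males right. Macrophage and neutrophil medians are above 1 in both uteri of the Hoxd-deficient pair, and the interferon-induced median is -0.02 in Hoxd-null and 0.67 in compound Hoxd-null uterus.

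The oviduct carried less of most interferon-induced transcripts than the uterus. Against WT uterus, 12 of 44 genes were at least 2-fold lower and 3 higher in WT oviduct (11.6% and 16.5% of all measured genes), with a median of -0.42 and 35 genes below 0. The type I targets were lower (median -0.64, 9 of 24 called), and so were the class I genes (median -0.76, 1 of 5), while the GTPases were level with the uterus (median -0.01). Oas3 was lowest at -2.71, and Oasl1 had 74.8 normalised reads in the uterus and 21.4 in the oviduct, a difference of -1.81 (interval -2.54 to -1.11). Isg15 had 119.6 normalised reads in the oviduct against 228 in the uterus. The 3 exceptions were Gbp4 at 2.23, Isg20 at 1.52 and Usp18, which had 215 normalised reads in the uterus and 529 in the oviduct (1.30, interval 1.06 to 1.54). Gbp4 and Isg20 were thus high in the oviduct as in the compound Hoxa-null uterus, whereas Usp18 was low in the latter (126 normalised reads). The natural killer markers were at a median of -3.15 in the oviduct, all 8 at least 2-fold lower, the leukocyte markers at -0.94 the macrophage markers at -0.65, the dendritic cell markers at -0.68 and the plasmacytoid dendritic cell markers at 1.86; the oviduct was also sequenced in another run, and the part of either was not tested.

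In the vas deferens the WT library was on the high side of the group, and 3 of the 4 mutants were below it. The WT vas held the highest value of 21 of 44 genes among the 5 vas libraries (20.2% of all genes) and the lowest of 1. The compound Hoxd-null vas held the highest value of 16 (22.1% of all), and the compound Hoxa-null vas the lowest of 20 and the highest of none (19.2% and 19.2% of all). The spread was smaller than in the uterus, 2.25-fold for the median gene with a range from 1.18-fold to 5.37-fold, and it reached 2-fold for 28 of 44.

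Against the WT vas, which these comparisons share, 18 of 44 genes were at least 2-fold lower and 1 higher in the compound Hoxa-null vas (8.17% and 14.1% of all measured genes), with a median of -0.86 and 40 below 0. In the Hoxa-null vas 9 were lower and 1 higher (8.32% and 11.1% of all), with a median of -0.68 and 39 below 0. In the Hoxd-null vas 8 were lower and none higher (4.84% and 3.43% of all), with a median of -0.60 and 37 below 0. Against the mean of the vasa with an intact Hoxd copy, the Hoxd-null median was -0.02, with 2 genes called lower. In the compound Hoxd-null vas 2 were lower and 2 higher (5.27% and 7.74% of all), with a median of -0.02. The 3 libraries that were low are those sequenced in lane 2 of run 134, and WT and compound Hoxd-null were each in a lane of their own among the vas libraries, so genotype and lane cannot be told apart in the comparisons with WT. Within lane 2, compound Hoxa-null differed from Hoxa-null vas by a median of -0.15, with 0 genes called in either direction (7.67% higher and 1.93% lower of all genes).

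Mx1 had 555 normalised reads in WT vas, 237 in Hoxa-null, 246 in Hoxd-null, 143 in compound Hoxa-null and 347 in compound Hoxd-null vas. All 4 mutants were below WT, and the compound Hoxa-null library was lowest at -1.96 (interval -2.22 to -1.72). Oasl1 had 331, 91.2, 163, 99.5 and 267 normalised reads in the same order of libraries. Its difference from WT was -1.86 (interval -2.19 to -1.54) in Hoxa-null vas and -0.31 (-0.55 to -0.07) in compound Hoxd-null vas. Oas1a had 665 normalised reads in WT, 311 in Hoxa-null, 243 in Hoxd-null, 300.4 in compound Hoxa-null and 391 in compound Hoxd-null vas, so that no mutant reached the WT value. Ifit1 had 308, 203, 183, 109.9 and 278 in that order, and Zbp1 had 31.9, 16.3, 19.1, 13.2 and 32.0, with compound Hoxd-null level with WT. Isg15 had 260.2, 162, 171, 113 and 132 normalised reads, and here the compound Hoxd-null library was low with the others (-0.98, interval -1.31 to -0.66). Bst2 likewise had 478 normalised reads in WT and 226 in compound Hoxd-null vas. Oas2, high in the compound Hoxd-null uterus, had 37.1 normalised reads in WT vas and 48.7 in compound Hoxd-null vas, a difference whose interval includes 0 (0.39, -0.24 to 1.02).

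As in the uterus, Isg20 went against its class: its deposited values were -1.31 in WT, 0.83 in Hoxa-null, -1.59 in Hoxd-null, 0.33 in compound Hoxa-null and -0.33 in compound Hoxd-null vas. It was higher than WT by 2.15 in Hoxa-null and 1.64 in compound Hoxa-null vas, and no other listed gene was called higher in either. Xaf1, a promoter of apoptosis, was level in 4 libraries, at 105 normalised reads in WT, 92.4 in Hoxa-null, 101 in Hoxd-null and 89.0 in compound Hoxa-null vas, and reached 267 in compound Hoxd-null vas (1.34, interval 1.02 to 1.65). Of the transcription factors only Irf7 was called. It had 246 normalised reads in WT, 162 in Hoxa-null, 118 in Hoxd-null, 113 in compound Hoxa-null and 156 in compound Hoxd-null vas. Irf9 was above WT in the Hoxa-deficient pair (deposited values -0.21 in WT, 0.38 in Hoxa-null and 0.32 in compound Hoxa-null). Stat2 was lowest in WT (-0.27) and highest in compound Hoxd-null vas (0.37). Irf1 stayed within 0.23 of WT.

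The class contrast in the vas had the same sign in all 4 mutants: the type I median minus that of the 12 GTPases and class I genes was -0.34 in Hoxa-null, -0.57 in compound Hoxa-null, -0.42 in Hoxd-null and -0.17 in compound Hoxd-null vas, though these share 1 WT library. The GTPases and class I genes did not move alike, since in the Hoxa-null vas the GTPase median was -0.88 and the class I median -0.12; against the GTPases alone the contrast was 0.16. In the compound Hoxd-null vas it was 0.33 against the class I genes alone. Gbp5 had deposited values of 1.05 in WT, -0.62 in Hoxa-null, 0.62 in Hoxd-null, -0.65 in compound Hoxa-null and 1.15 in compound Hoxd-null vas. It alone among the listed genes put the Hoxa-deficient pair 2-fold below the 3 other vasa (gap 1.25, 2.18% of all genes), and none put it 2-fold above (4.13% of all). Without the Hoxd-null library 5 genes put it below, a count to which the share of 2.18% does not apply. Gbp3 had 319.7 normalised reads in WT, 169 in Hoxa-null, 174 in compound Hoxa-null, 205 in Hoxd-null and 379 in compound Hoxd-null vas. The highest library was compound Hoxd-null for 6 of 7 GTPases and WT for 15 of 24 type I targets. Of the class I genes, Psmb8 had 228 normalised reads in WT, 218 in Hoxa-null, 149 in Hoxd-null, 155 in compound Hoxa-null and 171 in compound Hoxd-null vas. None of the 5 class I genes was called in any mutant vas, where 3.43% to 14.1% of all genes were in a given direction.

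Between the compound mutants, 16 of 44 genes were at least 2-fold higher in compound Hoxd-null than in compound Hoxa-null vas and none was lower (7.84% and 11.9% of all genes), with a median of 0.76. The GTPases led this comparison at a median of 1.12 (4 of 7 called), with 0.92 for the type I targets (10 of 24) and 0.14 for the class I genes (0 of 5). Against Hoxd-null, the compound Hoxd-null vas was at a median of 0.43, with 8 genes called higher and none lower (7.91% and 3.97% of all). Both comparisons cross sequencing runs. Without overlap, the Hoxa-deficient pair lay below the 3 other vasa for 19 genes (21.1% of all) and above them for 3, Isg20, Irf1 and Irf9 (23.6% of all). The Hoxd-deficient pair lay above for 3, Ifih1, Ddx58 and Parp14 (12.5% of all), and below for 1, Irf9 (11.9% of all). None of those gaps reached 2-fold, above (0.143% of all) or below (0.606% of all), although 1 did without the WT library and 2 without the Hoxd-null library. Those shares are for the full set of vas libraries.

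The Schlafen genes differed in the male tract from their pattern in the uterus. Slfn1 had 106 normalised reads in WT vas, 30.4 in Hoxa-null, 53.8 in Hoxd-null, 34.5 in compound Hoxa-null and 105 in compound Hoxd-null vas. Slfn4 had 198, 93.9, 171, 101 and 217 normalised reads, and Slfn2 had 603, 344, 644, 339 and 483, in that order. For all 3 the Hoxa-deficient pair was the lowest, and none was at least 2-fold above WT in a Hoxd mutant.

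Immune markers differed between the vas libraries too. The B and plasma cell markers were at medians of -3.11 in Hoxa-null, -3.37 in compound Hoxa-null, -1.15 in Hoxd-null and -1.62 in compound Hoxd-null vas, and the 5 with a readable level summed to 469, 48.6, 45.5, 190 and 152 normalised reads in WT and those libraries in turn. The 3 measured natural killer markers were at -1.32, -1.43, -0.70 and 0.25, and the general leukocyte markers at -0.73, -0.80, -0.60 and -0.44. The macrophage markers were within 0.47 of WT at the median in all 4. The dendritic cell markers, all 6 measured ones readable, summed to 149.8 normalised reads in WT, 98.7 in Hoxa-null, 102 in compound Hoxa-null, 136 in Hoxd-null and 164 in compound Hoxd-null vas. The 4 readable plasmacytoid dendritic cell markers summed to 249.9, 159, 148, 195 and 246 in that order, of which Ly6d gave 222 in WT and 228 in compound Hoxd-null. The medians from WT were -0.70, -0.53, -0.18 and 0.07 for the dendritic and -0.07, 0.06, -0.32 and 0.34 for the plasmacytoid list. The dendritic sum and median were thus lowest in the Hoxa-deficient pair and above WT in compound Hoxd-null vas. The plasmacytoid sum was also lowest in that pair, but in WT and compound Hoxd-null vas it rested mostly on Ly6d. The plasmacytoid median was instead lowest in Hoxd-null vas (-0.32). No list was wholly at 0 in a vas library, and the part of these cells in the interferon-induced differences was not tested.

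The caudal epididymis had lower values than the WT vas deferens for most of the genes. Against WT vas, 15 of 44 were at least 2-fold lower and 1 higher (12.5% and 16.3% of all measured genes), with a median of -0.85 and 37 below 0. The WT vas was itself the highest vas library for 21 of the 44 genes. Against the mean of the 5 vas libraries the epididymis median was -0.46. Mx1, for example, had 317 normalised reads in the epididymis, below WT and compound Hoxd-null vas (555 and 347) and above the remaining vasa. The Schlafen genes (median -1.37, 2 of 3 called) and the GTPases (median -1.29, 4 of 7) were the lowest classes, followed by the type I targets (median -0.94, 9 of 24) and the class I genes (median -0.67, 0 of 5). Oasl1 had 60.8 normalised reads in the epididymis against 331 in the vas (-2.44, interval -2.92 to -2.002), and Gbp5 was at -2.15. Irf7 was level at 254 against 246 normalised reads, and Bst2 at 547 against 478. Isg20 was the gene called higher, at 2.73, the largest difference of any listed gene between these tissues. In both sexes the upper-tract library was thus lower than the WT library of the lower tract for most genes (35 of 44 in females, 37 of 44 in males) and higher for Isg20, while Gbp4 was high in the oviduct (2.23) and not in the epididymis (-0.58). The leukocyte and natural killer markers were at medians of -0.80 and -0.97 in the epididymis, and the dendritic and plasmacytoid dendritic sums were 101 and 61.1 normalised reads. The epididymis was sequenced in another run than the vas, and the part of either was not tested.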

How the data were processed

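Total RNA was extracted from fresh tissue and sequenced as Illumina TruSeq libraries, per the labels' protocols. TopHat and the genome build mm9 were used, per the submitters' processing notes. Neither the counting tool nor the normalisation is given in the sources used here. The authors deposited log2 values, 1 per gene and library, in which every gene is centred on its median within the 6 libraries of its sex, and run and lane stand in the file headers. The spacing of low values gave the worth of 1 read in each library and, where it could be read, a level in normalised reads with steps of 0.01 of a read. Differences of deposited values were used directly. The planned pseudocount was not needed on a log2 scale.

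A minimum of 20 normalised reads in the highest library defined a measured gene, and genes too high for their level to be read were kept. Groups came from the labels, with 1 library each, so no model or p-value was used. A call needed a 2-fold difference. Intervals are 95% exact binomial ones on the recovered reads. All listed genes could be named, with full values for those at least 2-fold apart. The genes, classes, lists and comparisons were chosen with earlier results of these data known. Alternatives changed the minimum, the reference, the centring, the fold and the members, and left out each library. The scripts were tested on simulated data. Python 3.11.15, numpy 2.4.6, pandas 2.3.3, scipy 1.17.1, numba 0.67.0 and matplotlib 3.10.9 were used. Promoter windows came from RefSeq GRCm38.p6, matched by symbol, and no coordinate of that build was joined to the deposited ones.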

Additional observations from a re-analysis of the deposited data

Results flagged for a closer look

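Slfn1 differed from WT in opposite directions in the uterus and the vas deferens of the same genotypes. In the Hoxa-null animals it was higher by 1.25 on the log2 scale in the uterus and differed by -1.81 in the vas deferens. In the compound Hoxa-null animals the difference from WT was 1.78 in the uterus and -1.62 in the vas deferens. Each value rests on 1 library against 1 WT library, and the difference between the tissues was not tested. In the WT uterus Slfn1 was near the detection limit at 8.77 normalised reads, and the counting interval of the Hoxa-null difference there reached down to 0.02. The WT vas deferens had 106 normalised reads.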

How the results depend on the processing

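No paired analysis was possible because each tissue and genotype had 1 library. Of the medians, class contrasts and separation counts, 141 values under an alternative kept their direction and moved by under 1.5-fold, and 23 did not. Some medians and contrasts among the 23 changed sign, as given below. Among the 141, the Hoxd-null vas median went from -0.60 to -0.02, the Hoxa-null vas median from -0.68 to -0.36 and the epididymis median from -0.85 to -0.46, and the compound uterus medians from 0.67 to 1.01 (Hoxd-null) and from -0.37 to -0.68 (Hoxa-null), against the mean of several libraries in place of WT, and the compound Hoxa-null uterus contrast from -0.35 to -0.06 against class I genes alone. The Hoxd-null uterus median, -0.02, was 0.0055 with a minimum of 50 normalised reads, 0.13 as a mean and 0.37 against the mean of the uteri with an intact Hoxd copy. The compound Hoxd-null vas median became 0.47 with that kind of reference. The class contrast changed sign against 1 class alone: 0.12 against class I genes in the oviduct and 0.33 in the compound Hoxd-null vas, and 0.16 against GTPases in the Hoxa-null vas and 0.35 in the epididymis. With a gap of 1.5-fold, the genes separating the Hoxa mutants were 1 above and 12 below in the uterus, and 1 above and 7 below in the vas. Leaving out each library gave 0 to 2 above and 3 to 7 below for the Hoxa mutants in the uterus, 2 to 8 above and 0 to 1 below for the Hoxd mutants, 0 to 1 above and 1 to 5 below for the Hoxa mutants in the vas, and 0 to 2 above and 0 to 0 below for the Hoxd mutants there. No share of all genes is given for these counts or for the gap of 1.5-fold.

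Counts against WT moved with the fold and the reference, alternatives chosen after seeing the data. No share of all measured genes is given at these settings, and a lower fold raises the counts of any genes. The counts below therefore describe the settings and are not a result about the listed genes. At 1.5-fold, higher and lower genes numbered 3 and 27 in Hoxa-null, 4 and 16 in compound Hoxa-null, 3 and 4 in Hoxd-null and 26 and 0 in compound Hoxd-null uterus, 4 and 19 in the oviduct, 2 and 27, 1 and 29, 0 and 23, and 4 and 9 in the vasa in that order, and 1 and 28 in the epididymis. Against the mean of libraries with an intact copy of the cluster they were 0 and 18, 2 and 13, 4 and 2, and 22 and 1 in the uteri, and 1 and 5, 1 and 11, 0 and 2, and 6 and 0 in the vasa, and against all 5 vasa 1 and 5 in the epididymis. Depth limits genes of few reads, such as Slfn1 in WT uterus, Nlrc5, and Zbp1 in the vas, and no variation between animals could be measured.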

Other observations

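Gbp8 and Gbp10, neighbours of Gbp4 in sequence and outside the list, were the genes of the wider interferon-induced list with values most like those of Gbp4, and they were picked out after their values were seen. Gbp8 was at 1.66 from WT in the Hoxa-null uterus, 3.03 in the compound Hoxa-null uterus and 3.77 in the oviduct. Gbp10 was at 1.02 in the compound Hoxa-null uterus and 1.64 in the oviduct. How reads shared among such close copies were counted is not given in the sources used here.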
